A study of Mus musculus with 12 samples.

Results

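The comparison described here runs over the full span of the study, from E15.5 (embryonic day) to P8 (postnatal day) in the mouse lung. It rests on 6 of the 12 whole-lung RNA-seq libraries of the series, 3 from E15.5 and 3 from P8, in the tables of raw read counts, CPM (counts scaled by the mapped reads of a library) and percent spliced in (PSI, the share of a gene's transcripts that include a given exon, intron or splice site). The 6 libraries from E18.5 and P5 were used to place each change in 1 of 3 intervals, the early (E15.5 to E18.5), the middle (E18.5 to P5) or the late (P5 to P8). The libraries were chosen by their time-point labels alone. All mice were untreated wild-type C57BL/6, of both sexes. The 3 lungs of a time-point came from a single litter, so litter and time-point cannot be told apart and p-values measure the spread among litter-mates. The early and the late interval each cover 3 days, whereas the middle interval contains birth.

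At E15.5 the lung is in the pseudoglandular stage, a branching tree of epithelial tubes in dividing mesenchyme. During the saccular stage around birth the distal epithelium forms flat alveolar type 1 cells, across which gas diffuses, and cuboidal type 2 cells, which secrete surfactant. By P8 alveolarization has begun and septa carrying elastin grow into the air spaces. The comparison therefore sets a fluid-filled organ of branching tubes against a breathing organ that is exposed to air, microbes and circulating leukocytes. In bulk tissue a change in the number of cells of a type and a change in RNA per cell cannot be told apart, for any gene described here.

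Sequencing depth was similar at all time-points, at 41337443 to 53901957 counted reads per library, and 3.28% to 6.49% of these reads fell in the 10 most abundant genes. Genes of other tissues were high in some libraries, above all in E15.5 replicates 1 and 2 and in P8 replicates 1 and 2. The 10 heart muscle genes examined summed to 1014 and 1258 CPM in E15.5 replicates 1 and 2 against 59.5 in replicate 3. At P8, replicates 1 and 2 against replicate 3 held squamous epithelium genes at 935 and 727 against 14.4 CPM, fat genes at 369 and 741 against 16.1 CPM, and thymocyte genes at 431 and 759 against 127 CPM. Skeletal muscle genes stood at 691, 178 and 9.65 CPM and liver genes at 11.2, 109 and 35.8 CPM in the 3 P8 libraries. P5 replicate 3 held skeletal muscle genes at 215 CPM against 8.93 and 14.7 in the other P5 libraries, and fat genes at 135 CPM against 0.771 and 22.5. The 6 mesothelium genes, in contrast, were high in all 3 P8 libraries, at 565 to 597 CPM against 101 to 137 at E15.5. Results that rest on these E15.5 and P8 libraries are given with and without them. The lung itself was present in every library: surfactant gene Sftpc, the defining transcript of distal lung epithelium, was at 505 CPM or more in each.

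**Figure D1:**
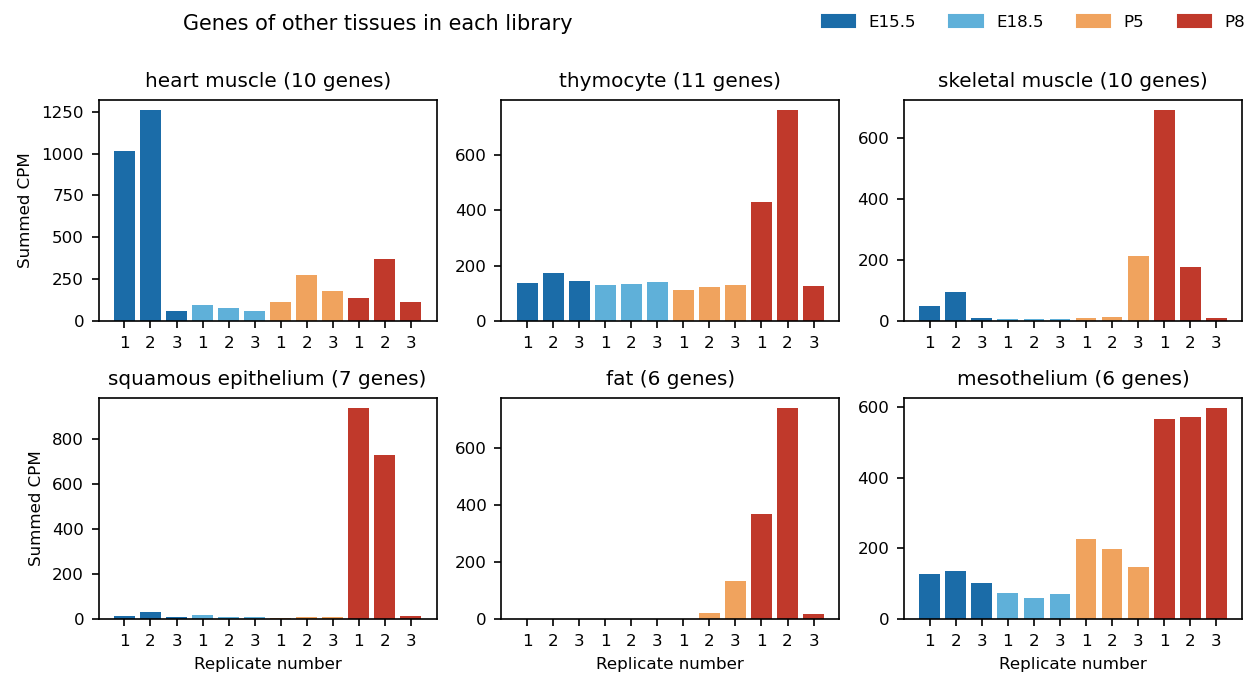
Summed CPM of 6 marker lists of other tissues in each of the 12 libraries, by replicate number within each time-point (bar colour). Heart muscle genes stand out in E15.5 replicates 1 and 2, squamous epithelium, fat and thymocyte genes in P8 replicates 1 and 2, and mesothelium genes are high in all 3 P8 libraries.

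To measure the total change, E15.5 and P8 were compared by edgeR's quasi-likelihood test fitted on all 12 libraries, and genes with an absolute log2 fold change above 1 and a Benjamini-Hochberg false discovery rate under 0.05 were called. Of 15994 genes tested, 5174 (32.3%) were called, 3338 (20.9%) higher at P8 and 1836 (11.5%) lower. The 3 E15.5 and 3 P8 libraries did not overlap for 5066 of the called genes, whereas 77.1% of all tested genes had no overlap. Of the genes called higher, 1782 exceeded a 4-fold difference (absolute log2 fold change above 2) against 322 of the genes called lower. Over all tested genes the median absolute log2 fold change was 0.652, and 76.3% of genes passed the false discovery rate alone.

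**Figure D2:**
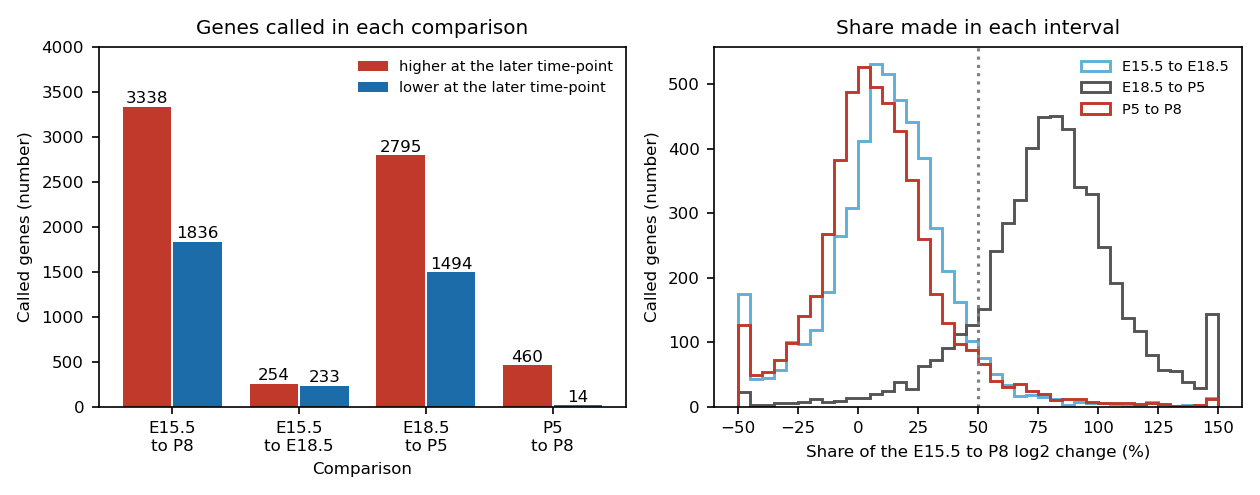
Left, number of genes called higher (red) or lower (blue) in the full-span comparison and in each interval. Right, share of each called gene's E15.5 to P8 log2 fold change that was made in each interval, for 5174 genes, with shares below -50% or above 150% placed in the end bins and a dotted line at 50%. The E18.5 to P5 curve lies mostly to the right of the line and the other curves to the left.

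The change was made mainly between E18.5 and P5. This is also the longest interval, and changes were not divided by the length of an interval. Called genes numbered 487 (3.04%) in the early, 4289 (26.8%) in the middle and 474 (2.96%) in the late interval, and the median absolute log2 fold change over all genes was 0.193, 0.550 and 0.178. The calls went in both directions early (1.59% of genes higher, 1.46% lower) and in the middle (17.5% and 9.34%), whereas late calls were nearly all increases (2.88% and 0.0875%). Of the 5174 genes called over the full span, 4496 (86.9%) made more than 50% of their log2 change between E18.5 and P5, against 274 (5.30%) before and 303 (5.86%) after. The median shares of the 3 intervals were 12.4%, 80.6% and 6.97%. Leaving out E18.5 replicate 1 or 2, 310 or 284 genes were called in the first interval, and leaving out any P5 library, P8 replicate 1 or P8 replicate 2, 198 to 309 in the last. These majorities are a description, because noise in the E15.5 or P8 libraries enters both the span and the outer interval.

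A gene was also tested for having changed more in an interval than in either other interval. Contrasts between the intervals in the same fit were used. The test was counted among genes called over the full span, so noise in the E15.5 and P8 libraries enters it too. By this test 3192 called genes (61.7%) changed most in the middle interval, 27 (0.522%) in the early and 28 (0.541%) in the late one. The small counts rested on single libraries, the 27 becoming 75 without E15.5 replicate 3, 43 without E18.5 replicate 3 and 17 without P8 replicate 1, and the 28 becoming 84 without P8 replicate 3, 13 without P8 replicate 2 and 18 without P8 replicate 1 or P5 replicate 3. Genes that fell had median shares of 14.2%, 83.7% and 2.27%, against 11.04%, 78.7% and 9.87% for the genes that rose, a difference that was not tested. Among the 303 genes with most of their change after P5, 276 rose and 27 fell.

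Of the called genes, 1222 passed the fold and FDR thresholds in no single interval, and 2151 (41.6%) had the same sign in all 3. Conversely, 657 genes were called in an interval but not over the full span. Reversals were few: 51 genes called from E15.5 to P8 had been called in the opposite direction in the early interval, 6 in the middle and 34 in the late one.

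Without E15.5 replicates 1 and 2 and P8 replicates 1 and 2, 5057 genes were called from E15.5 to P8, and 4429 of the 5174 (85.6%) were called in the same direction. The middle interval compares none of these libraries. Without P5 replicate 3, 4069 of the 4289 (94.9%) middle calls and 237 of the 474 (50%) late calls were kept. Without E15.5 replicates 1 and 2, 179 genes were called in the early interval, with 122 of the 487 (25.1%) kept. Without P8 replicates 1 and 2, 51 genes were called in the late interval, with 44 of the 474 (9.28%) kept. The fits without a pair of libraries leave a time-point with a single library, whose spread is then taken from the other groups, so that lost calls reflect fewer libraries as well as which were left out.

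**Figure D3:**
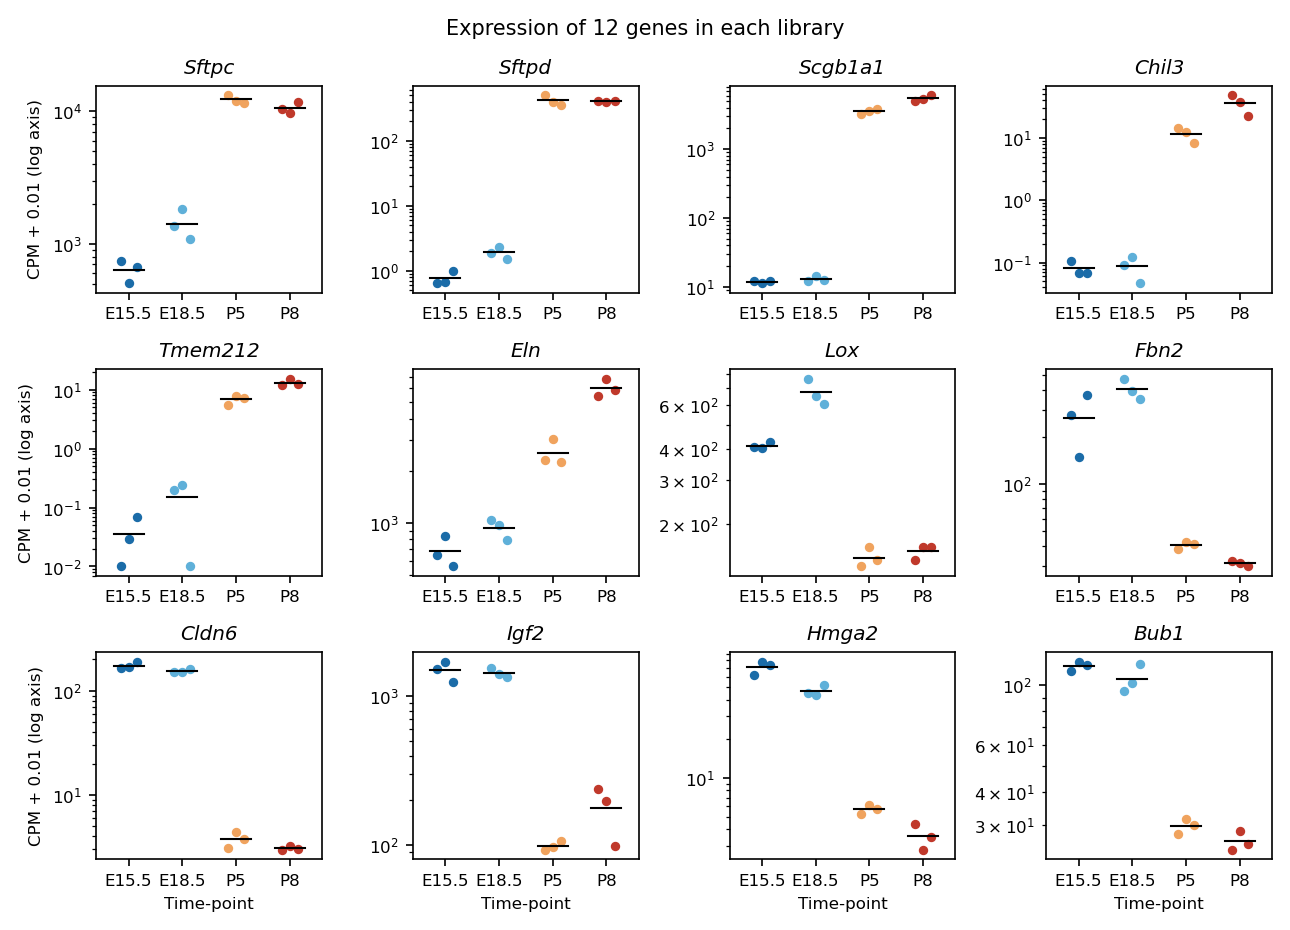
CPM of 12 genes in each library (points, log axis, with 0.01 added) and the mean of the 3 libraries of each time-point (bars). Most genes step between E18.5 and P5, whereas the mean of Eln is higher at each later time-point and the means of Lox and Fbn2 are highest at E18.5.

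Among called genes that reached a mean of 10 CPM at E15.5 or P8, the largest increase was that of C6, which encodes a component of the complement membrane attack complex. It was at 0.0161, 0.0197 and 0.0197 CPM in the 3 E15.5 libraries and at 17.3, 22.8 and 22.4 at P8. With 3 reads in all at E15.5, the P8 to E15.5 ratio was 1152 (95% counting interval 394 to 5587). Sftpd, the collectin surfactant protein D, rose from 0.629, 0.649 and 0.983 to 416, 396 and 407 CPM, a log2 fold change of 9.16 ± 0.22 (SE, n = 3 libraries a group, adjusted p = 5.14e-11). All P8 values of both genes lay far above all E15.5 values, and both were near their P8 level at P5, at means of 18.4 and 419 CPM.

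The other genes among the 15 largest increases fell into few kinds. Chil1 (log2 fold change 8.98 ± 0.31), a chitinase-like protein of type 2 cells, and Lyz1 (8.93 ± 0.24), a lysozyme whose reads may be shared with its near-identical neighbour Lyz2, rose with Sftpd. Tmem212, a membrane protein gene, was at 0, 0.0197 and 0.0590 CPM at E15.5 and 11.8, 15.3 and 12.2 at P8. Scgb1a1, the secretoglobin of club cells, went from 12.1, 11.3 and 12.3 to 4972, 5359.5 and 6029 CPM, and 91.7% of its log2 change of 8.92 ± 0.12 was made in the middle interval. Chil3 (8.98 ± 0.45) and Atp6v0d2 (8.83 ± 0.39), genes of macrophages, Spink5 (8.57 ± 0.27), a protease inhibitor, Inmt (8.53 ± 0.67), a methyltransferase of lung fibroblasts, and Retnla (8.55 ± 0.61), a secreted resistin-like protein, completed this group.

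4 of the 15 were uneven among the P8 libraries. Pck1, a gluconeogenic enzyme, was at 51.6, 80.8 and 2.53 CPM, Adipoq, the adipokine adiponectin, at 26.99, 41.98 and 0.986, Tff2, a trefoil peptide, at 27.7, 31.1 and 5.52 and Cd8a, a co-receptor of T cells, at 32.96, 59.5 and 3.24. Each was high in P8 replicates 1 and 2, the libraries with high fat and thymocyte genes, and low in replicate 3. Without those libraries the log2 fold changes were 4.65, 4.19, 6.84 and 5.18, and Adipoq no longer passed the test (adjusted p = 0.0720, edgeR). Retnla, at 223, 166 and 64.2 CPM, was also lower in replicate 3, with 7.30 without the first 2 libraries.

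**Figure D4:**
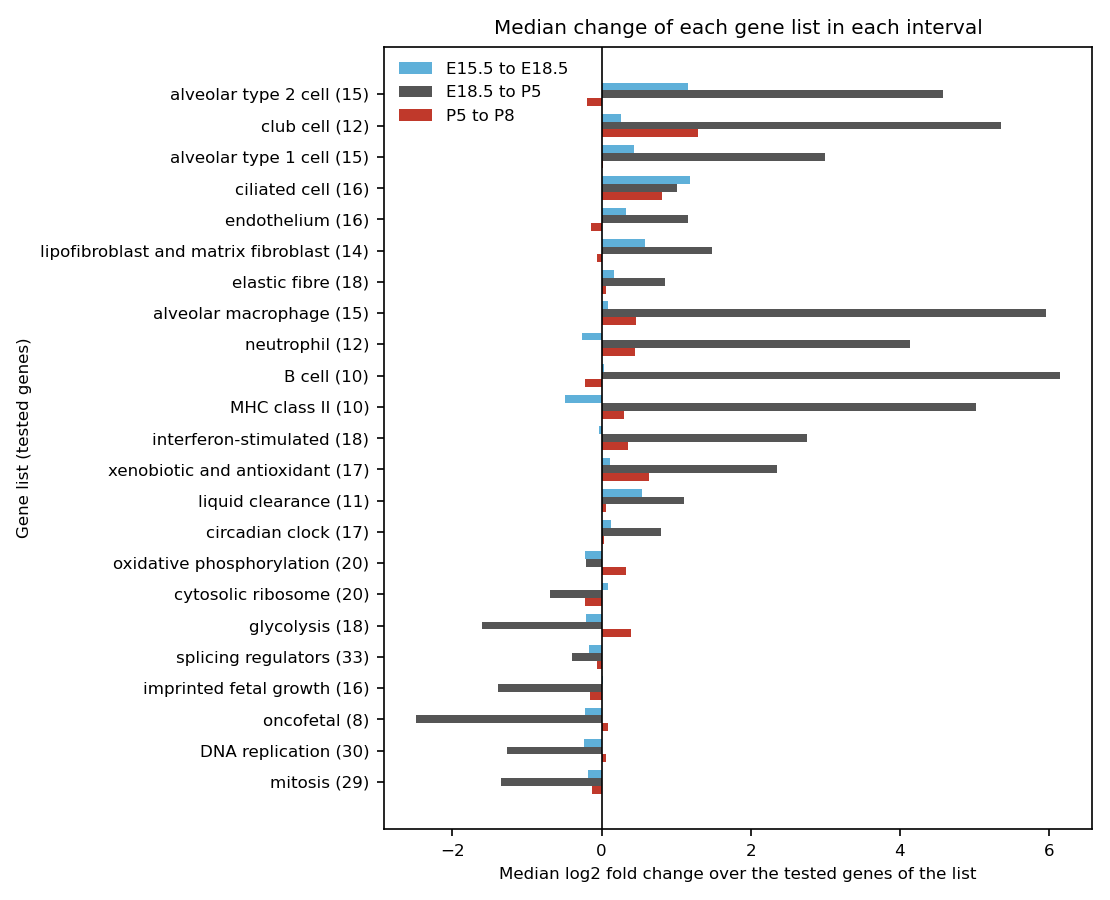
Median log2 fold change of 23 gene lists in each of the 3 intervals, with the number of tested genes in brackets. In most lists the E18.5 to P5 bar is the longest. In the ciliated cell list the 3 bars are of similar length.

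The 657 genes of the 48 lists examined, which cover cell types, processes and neighbouring tissues, are described by counts of the members that passed the filter on low values. Over all tested genes, 20.9% were called higher and 11.5% lower over the full span, and each list count stands against these shares. Genes of the alveolar epithelium rose almost without exception. For type 2 cells 15 of 15 genes were called higher at P8 (all tested genes, 20.9%), with a median log2 fold change of 5.63 against -0.02 over all tested genes. For type 1 cells it was 14 of 15, with a median of 3.31. The phosphate transporter gene Slc34a2 went from 4.89, 2.71 and 3.54 to 1135, 1119.8 and 1362 CPM and the surfactant-processing protease gene Napsa from 4.28, 5.37 and 3.36 to 211, 186 and 215. Among type 1 genes, the receptor gene Ager went from 46.4, 38.3 and 43.8 to 1106, 998 and 1285 CPM and the basement membrane collagen gene Col4a3 from 8.12, 6.96 and 8.38 to 241, 217 and 273. No E15.5 library overlapped a P8 library for any of these 4 genes. The exception was Igfbp2 (-0.29 ± 0.10).

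In the early interval, 10 of 15 type 2 genes were already called higher (all tested genes, 1.59%), with a list median of 1.16 on the log2 scale, against 2 of 15 type 1 genes and a median of 0.44. In the middle interval the medians were 4.57 and 2.99, and in the late interval they were -0.20 and 0.02. The difference between the lists was not tested. Genes of the distal tip, the progenitor population of branching, had 3 of 9 called lower (all tested genes, 11.5%) and a median of -0.40. The 3 were the transcription factor genes Sox9 (-3.16 ± 0.16), Mycn (-1.61 ± 0.09) and Etv5 (-1.06 ± 0.09). Without P8 replicates 1 and 2 Etv5 was at -0.85, short of the fold threshold.

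In the conducting airways, 10 of 12 club cell genes were called higher at P8, with a median log2 fold change of 6.67. With all libraries the list continued upwards after P5. In the late interval 4 genes were called higher (all tested genes, 2.88%) and the median was 1.29. The late count and median were not taken without P8 replicates 1 and 2. Bpifb1, a secreted airway defence protein, went from 0.565, 0.472 and 0.610 to 171, 215 and 77.2 CPM, and the mucin gene Muc5b from 1.08, 0.236 and 0.275 to 64.5, 73.2 and 14.7. Both were lowest in replicate 3 at P8, and without replicates 1 and 2 their full-span log2 fold changes were 7.20 and 4.81. The late change of Bpifb1 was then 2.51, against 3.52 with all libraries. Cckar (-0.27 ± 0.07) and Cldn10 (-0.25 ± 0.13) did not pass.

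Ciliated cell genes had no dominant interval. 13 of 16 were called higher at P8 with a median of 3.40, and the medians of the 3 intervals were 1.19, 1.01 and 0.82. Genes called higher numbered 11, 8 and 4 in the same order, and 2 were called lower in the middle interval. Foxj1, the master transcription factor of motile cilia, had mean CPM of 8.70 ± 2.59, 31.9 ± 13.01, 35.98 ± 3.59 and 70.6 ± 10.9 (± SD, n = 3) in order of age. The means at E18.5 and P5 differed by less than the SD at E18.5. Deup1, which builds the centriole-forming deuterosomes, was highest at E18.5 with 10.5, 13.6 and 5.35 CPM and was at 7.51, 7.87 and 6.80 at P8, whereas the axonemal dynein gene Dnah5 rose throughout, from 0.130 ± 0.0677 to 21.6 ± 6.47 CPM.

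Of the 7 neuroendocrine genes that passed the filter on low values, 3 were called lower at P8, among them Uchl1 (-1.78 ± 0.10) and Insm1 (-1.28 ± 0.44), and none was called higher (all tested genes, 11.5% lower and 20.9% higher). The median of the list was 0.67. Without E15.5 replicates 1 and 2, 2 were called lower and 2 higher, and Insm1 was not called (adjusted p = 0.0656, edgeR). The remaining 6 genes of the list were too low to be tested.

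In the vasculature 12 of 16 pan-endothelial genes were called higher at P8, with a median log2 fold change of 1.39. Of 7 aerocyte genes 4 and of 6 general capillary genes 5 were called higher. Car4, a carbonic anhydrase of the aerocytes that line the gas-exchange surface, went from 0.291, 0.570 and 0.236 to 62.8, 58.9 and 69.7 CPM and Gpihbp1, the capillary anchor of lipoprotein lipase, from 6.36, 6.23 and 7.06 to 70.3, 67.4 and 79.1. Neither gene had overlapping groups. The list median was 1.16 in the middle interval and -0.14 in the late interval. Ednrb (-0.69 ± 0.09), Aplnr (-0.37 ± 0.09) and Apln (0.44 ± 0.10), which also mark capillary cells, were not called.

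Among mesenchymal genes, contractile genes were mostly below the fold threshold over the full span, with 4 of 15 called higher (all tested genes, 20.9%) and a median of 0.55. Acta2, encoding smooth muscle actin, was at 469, 524 and 452 CPM at E15.5 and 444, 437 and 485 at P8, ranges that overlap. Genes of lipofibroblasts and matrix fibroblasts were called higher in 8 of 14 cases, and the difference between the lists was not tested. They included Pparg (3.52 ± 0.27), the transcription factor of lipid storage, and Lpl (2.37 ± 0.20), lipoprotein lipase.

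Elastic fibre genes changed in composition. 11 of 18 were called higher and 3 lower. Eln, the elastin of the septal tips, was at 651, 839 and 557 CPM at E15.5 and 5424, 6845 and 5872 at P8, a log2 fold change of 3.22 ± 0.17 (adjusted p = 5.84e-09). Its log2 fold changes in the 3 intervals were 0.46, 1.53 and 1.24, of which the last 2 were called, and 38.4% of its change was made after P5. Its full-span change without P8 replicates 1 and 2 was 3.18.

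The fibrillin genes moved in opposite directions. Fbn2, the fetal fibrillin, went from 278, 148 and 372 to 32.4, 31.5 and 29.8 CPM (log2 fold change -3.02 ± 0.26) and Fbn1 from 133, 72.8 and 166 to 246, 235 and 259 (1.07 ± 0.22). Without E15.5 replicates 1 and 2 the log2 fold change of Fbn1 was 0.63 and that of Loxl2, a cross-linking enzyme, 0.99, both under the fold threshold. The cross-linking enzymes split likewise: Lox (-1.33 ± 0.09) fell, whereas Loxl1 (2.41 ± 0.12) and Loxl2 (1.06 ± 0.09) rose. The mean of Lox was higher at E18.5 than at E15.5, at 674 ± 80.7 against 412 ± 12.4 CPM (adjusted p = 7.08e-04, edgeR), and it then fell by 2.11 ± 0.09 on the log2 scale in the middle interval. Fbln1 (-1.45 ± 0.09) fell while Fbln2 (1.70 ± 0.24) and Fbln5 (3.11 ± 0.17), which binds elastin, rose. No E15.5 and P8 libraries overlapped for Fbn2, Lox, Fbln5 or Eln.

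Among collagens 5 of 16 chains were called higher and none lower (all tested genes, 20.9% and 11.5%). 4 of these 5 were basement membrane chains, Col4a1 (1.57 ± 0.12), Col4a2 (1.93 ± 0.14), Col4a3 (5.03 ± 0.17) and Col4a4 (3.18 ± 0.15). The basement membrane chains Col4a5 and Col4a6 were not called, nor were the fibrillar chains Col1a1 (0.37 ± 0.15) and Col3a1 (0.60 ± 0.06). Cartilage genes, which mark the rings of the large airways, were called lower in 4 and higher in 2 of 11 cases (all tested genes, 11.5% and 20.9%). Leaving out P8 replicates 1 and 2, they were lower in 8 and higher in 0 of 9.

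The largest decreases were those of the embryonic globin genes. Hba-x went from 77.2, 61.9 and 65.2 CPM to 0.390, 0.0817 and 0 and Hbb-y from 240.4, 283 and 263 to 1.35, 0.866 and 0.148, with log2 fold changes of -8.80 ± 0.52 and -8.35 ± 0.43. The adult globin genes Hbb-bs (1.91 ± 0.25) and Hba-a1 (1.62 ± 0.19) rose over the same span, to 4797 ± 1064 and 2884 ± 379.5 CPM at P8. In the list of 13 globin and erythroid genes 9 were called higher and 3 lower (all tested genes, 20.9% and 11.5%), the 3 being the embryonic globins. Globin genes have near-identical copies whose reads can be split between them, so the values of single copies are uncertain.

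Other genes with large decreases were of several kinds. Cldn6, a tight junction protein of embryonic epithelia, was at 165, 168 and 189 CPM at E15.5 and 2.98, 3.25 and 3.02 at P8 (log2 fold change -5.74 ± 0.11, adjusted p = 6.17e-12), with 92.3% of the change in the middle interval. Cym, the milk-clotting protease chymosin, fell from 60.7, 52.9 and 64.1 to 0.636, 0.261 and 0.115 CPM and the kinesin gene Kif12 from 13.01, 12.6 and 14.8 to 0, 0.163 and 0. For each of the 3 genes the lowest E15.5 library was far above the highest P8 library. Emilin3 (-5.16 ± 0.26) and Vwa2 (-4.71 ± 0.20) encode extracellular matrix proteins, B4galnt4 (-4.81 ± 0.18) a glycosyltransferase, and Fndc3c1 (-4.35 ± 0.22) and Ly6h (-3.95 ± 0.31) completed the group with Igf2os (-4.47 ± 0.27), an antisense transcript at Igf2 that cannot be separated from Igf2 by counts whose strand setting is unknown.

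3 of the 15 largest decreases had a higher mean at E18.5 than at E15.5, by less than the fold threshold, and fell afterwards. Hif3a, of the hypoxia-inducible factor family, stood at 91.6 ± 14.1 CPM at E15.5, then 169.9 ± 30.03 at E18.5, and ended at 5.31 ± 0.310. Adamts18, a secreted metalloprotease, stood at 21.3 ± 1.36, 36.3 ± 2.33 and 1.05 ± 0.240 CPM, and Ccl11, the chemokine eotaxin, at 29.2 ± 1.62, 43.8 ± 4.27 and 1.69 ± 0.768 CPM. For these genes the middle decrease exceeded that of the full span, at -4.17, -5.66 and -4.34 on the log2 scale against -4.03, -4.26 and -4.04.

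Imprinted genes of fetal growth were called lower in 11 of 16 cases and higher in none. Igf2, the fetal growth factor, was at 1535, 1708 and 1249 CPM at E15.5 and 237, 199 and 97.9 at P8 (-2.99 ± 0.26), and the adjacent non-coding RNA H19 at 2456, 2595 and 2026 and 528, 327 and 170.1 (-2.70 ± 0.31). Within the P8 group both were higher in replicates 1 and 2 than in replicate 3. Of the oncofetal genes, which are on in embryos and silenced in most adult tissue, 7 of 8 were called lower, with a median of -2.86. Lin28b, which blocks maturation of the let-7 miRNAs, changed by -5.22 ± 0.51, and the let-7 targets Hmga2 and Igf2bp1 by -4.26 ± 0.16 and -3.46 ± 0.09. Hmga2 was at 61.8, 78.04 and 74.2 CPM at E15.5 and 4.37, 2.78 and 3.45 at P8. Dlk1, an imprinted inhibitor of adipocyte differentiation, fell from 767, 796 and 729.8 to 94.1, 83.1 and 82.5 CPM.

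Hox genes, which specify position along the body axis, were called lower in 6 of 15 cases and higher in none (all tested genes, 11.5% and 20.9%), with a median of -0.72. 5 of the 6 lay in the Hoxb cluster, led by Hoxb8 (-2.03 ± 0.29), whereas none of the 6 tested Hoxa genes was called. Of 20 genes of morphogen signalling, 5 were called higher and 3 lower, shares near those of all tested genes. Wnt7b (-2.43 ± 0.09), the ligand of the epithelium, Fgf9 (-1.26 ± 0.25), a ligand of epithelium and mesothelium, and Gli1 (-2.04 ± 0.16), the target of hedgehog signalling, fell. Wnt5a (1.63 ± 0.10), Fgf18 (1.48 ± 0.13) and Fgf7 (1.31 ± 0.17), ligands of the mesenchyme, were among the 5 called higher. The other 12 genes of the list were not called, and a difference between ligands of epithelium and mesenchyme was not tested.

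Genes of cell division fell together, by moderate amounts. Of 29 mitosis genes 28 were called lower (median log2 fold change -1.59) and of 30 DNA replication genes 27 (-1.38). The spread of the mitosis list was narrow, from -2.15 to -0.93. Bub1, a kinase of the spindle checkpoint, was at 114, 122 and 119 CPM at E15.5 and 24.3, 28.6 and 25.5 at P8 (-2.10 ± 0.08), Ncapg, a condensin subunit, at 90.8, 91.8 and 94.5 and 19.7, 23.4 and 19.2 (-2.08 ± 0.09). The proliferation marker gene Mki67, the member of the list that was not called, had 334 ± 95.1, 444 ± 29.3 and 167 ± 28.4 CPM at E15.5, E18.5 and P8. Both lists fell almost wholly in the middle interval, where the medians were -1.35 and -1.27, against -0.19 and -0.23 before.

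Late cell cycle genes share promoter elements, the CCAAT box bound by NF-Y and the cell cycle genes homology region. The homology region, written TTTGAA or TTCGAA, is bound by the DREAM and MuvB complexes, and through it these genes are repressed outside division. Genes of DNA replication more often carry an E2F site such as TTTCGCGC. The promoters of 4 of the 5 mitosis genes with the largest decreases are shown from RefSeq (GRCm38.p6). They were chosen, among mitosis and DNA replication genes called lower, for holding a CCAAT box with TTTGAA or TTCGAA, then by size of decrease. Genes with several annotated promoters and those on a single excluded chromosome were left out. That all 4 hold both elements follows from this choice. Each runs from 250 bases before to 50 after the annotated start, 5′ to 3′ on the gene's strand. The CCAAT box and the homology region are in capitals on either strand (ATTGG and TTCAAA are their reverse complements). The promoters lie at chr2:127831810-127832109 (minus strand), chr5:45669675-45669974 (plus strand), chr10:69352863-69353162 (minus strand) and chr2:172370521-172370820 (minus strand).
Bub1: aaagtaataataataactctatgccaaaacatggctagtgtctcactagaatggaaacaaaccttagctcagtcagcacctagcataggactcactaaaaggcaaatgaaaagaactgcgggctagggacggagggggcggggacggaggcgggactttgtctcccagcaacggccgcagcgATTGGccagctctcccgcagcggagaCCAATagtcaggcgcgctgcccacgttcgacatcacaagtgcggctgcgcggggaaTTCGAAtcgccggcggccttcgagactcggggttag
Ncapg: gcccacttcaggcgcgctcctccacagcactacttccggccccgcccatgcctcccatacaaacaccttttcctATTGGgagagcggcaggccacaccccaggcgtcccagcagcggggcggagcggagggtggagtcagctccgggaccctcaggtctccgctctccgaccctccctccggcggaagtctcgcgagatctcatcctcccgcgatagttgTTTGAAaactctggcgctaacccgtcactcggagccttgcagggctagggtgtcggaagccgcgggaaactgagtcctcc
Cdk1: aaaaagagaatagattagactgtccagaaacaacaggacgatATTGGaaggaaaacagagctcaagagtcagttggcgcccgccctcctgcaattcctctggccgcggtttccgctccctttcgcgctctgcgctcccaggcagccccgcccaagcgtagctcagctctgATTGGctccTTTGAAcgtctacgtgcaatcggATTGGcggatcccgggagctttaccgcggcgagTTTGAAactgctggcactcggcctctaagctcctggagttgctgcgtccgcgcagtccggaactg
Aurka: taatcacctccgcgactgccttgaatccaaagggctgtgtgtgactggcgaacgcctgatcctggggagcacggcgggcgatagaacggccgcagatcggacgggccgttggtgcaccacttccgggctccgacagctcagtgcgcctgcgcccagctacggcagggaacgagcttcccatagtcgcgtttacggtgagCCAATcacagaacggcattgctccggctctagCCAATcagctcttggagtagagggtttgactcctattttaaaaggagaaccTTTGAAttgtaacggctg

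Searched on both strands, a CCAAT box together with TTTGAA or TTCGAA was in 73.9% of the 23 promoters matched to the mitosis genes called lower, in 20% of the 25 promoters of the DNA replication genes called lower and in 7.52% of all 32851 promoters. CCAAT alone was in 82.6%, 52% and 37.4%, and TTTCGCGC in 4.35%, 24% and 0.323%. None of the 4 motifs contains another. In the 11 promoters matched to the 15 largest decreases CCAAT was in 45.5% and the combination in 9.09%. A match gives letters in a window and no evidence of binding, and the mitosis and replication sets were chosen after their changes had been seen.

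Immune cell lists were mostly called higher at P8. For alveolar macrophages, which settle in the air spaces after birth, 14 of 15 genes were called higher, with a median log2 fold change of 6.92. The scavenger receptor gene Marco was at 0.420, 0.236 and 0.118 CPM at E15.5 and 37.3, 27.5 and 30.8 at P8, and the eosinophil-associated ribonuclease gene Ear2 at 0.533, 0.157 and 0.118 and 45.4, 44.5 and 45.6. Fabp4 (log2 fold change 6.17 ± 1.29), which fat cells also express, was at 199, 375 and 11.9 CPM at P8 and was not called without replicates 1 and 2 (2.14, adjusted p = 0.103 by edgeR). Genes of interstitial macrophages and monocytes, present at E15.5, moved less, with 10 of 14 called and a median of 1.27.

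All 10 B cell genes were called higher at P8, with a median of 5.69. Ighm, the heavy chain of IgM, rose from 1.34, 3.79 and 2.05 to 82.8, 91.3 and 44.98 CPM. Of 16 neutrophil genes 12 were tested and 11 called higher, among them the calprotectin gene S100a8 (4.57 ± 0.38), and Prtn3, a granule protease of immature cells, was not called (1.39 ± 0.246 and 0.981 ± 0.395 CPM). Of the 9 tested T and NK cell genes 7 were called higher, with a median log2 fold change of 3.26. The 11 listed genes summed to 1.08, 26.4 and 0.649 CPM at E15.5 and 66.9, 100 and 22.7 at P8. Without P8 replicates 1 and 2, in which thymocyte genes were high, the median was 2.13. It was 7.16 without E15.5 replicates 1 and 2, and 5.42 without all 4 libraries.

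Antigen presentation rose as a block. All 10 MHC class II genes were called higher (median 4.24) and all 15 genes of MHC class I and the immunoproteasome (median 3.09). Cd74, the invariant chain, was at 4.12, 18.48 and 3.46 CPM at E15.5 and 371, 400.3 and 372 at P8, and the class I gene H2-K1 went from 21.9, 21.9 and 19.6 to 308, 239 and 259. Of 18 interferon-stimulated genes 16 were called higher, including the ubiquitin-like modifier gene Isg15 (4.16 ± 0.37) and the transcription factor gene Irf7 (3.55 ± 0.33). For these 4 named genes no E15.5 library overlapped a P8 library.

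Metabolic genes changed selectively. Glycolytic genes were called lower in 11 of 18 cases and higher in none, with a median log2 fold change of -1.43. Slc2a1, the glucose transporter GLUT1, was at 65.8, 91.4 and 79.3 CPM at E15.5 and 16.3, 19.8 and 15.8 at P8, and Hk2, hexokinase 2, at 35.1, 32.8 and 43.2 and 9.67, 10.8 and 5.13. Their means at E18.5 were above those at E15.5, at 118 ± 26.1 and 59.4 ± 11.4 CPM. Genes of oxidative phosphorylation were called in 1 of 20 cases, the muscle isoform gene Cox7a1 (3.11 ± 0.95), which stood at -0.40 without P8 replicates 1 and 2. Ribosomal protein genes had a median of -0.82 and 1 of 20 was called lower, Rps2 (-1.27 ± 0.10).

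Genes that clear fetal lung liquid were called higher in 6 of 11 cases (all tested genes, 20.9%). They were the subunits of the epithelial sodium channel, Scnn1a (5.38 ± 0.25), Scnn1b (3.85 ± 0.10) and Scnn1g (3.83 ± 0.19), the water channel gene Aqp1 (4.31 ± 0.11), the kinase gene Sgk1 (3.13 ± 0.26) and the sodium pump subunit gene Atp1b1 (1.75 ± 0.16). Scnn1a was at 3.16, 4.25 and 3.80 CPM at E15.5 and 135, 147 and 159.7 at P8. The chloride channel gene Cftr, which acts in secretion, was at 18.4 ± 4.92 and 18.7 ± 2.24 CPM and was not called. Detoxification genes were called higher in 14 of 17 cases, among them Sod3, the extracellular superoxide dismutase, at 0.662, 0.767 and 0.728 CPM at E15.5 and 50.8, 66.4 and 47.2 at P8. Scd1, a desaturase of lipid synthesis, rose from 13.8, 16.2 and 12.7 to 416, 374 and 367 CPM, and was called with Elovl1 (1.86 ± 0.11), whereas Elovl6 (-1.42 ± 0.17) was called lower and Fasn (0.42 ± 0.15) and Srebf1 (0.30 ± 0.09) were not called.

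Of 17 genes of the circadian clock 10 were called higher (all tested genes, 20.9%), with a median of 1.06. They included the repressors Nr1d1 (2.82 ± 0.21) and Per3 (1.84 ± 0.13), but not the activators Clock (0.56 ± 0.08) and Arntl (0.80 ± 0.12). The hour of collection is not given in the sources used here, so phase and level cannot be told apart. Of 11 glucocorticoid-responsive genes 7 were called higher, led by Hsd11b1 (4.96 ± 0.39), which regenerates active glucocorticoid, and Pdk4 (2.90 ± 0.58). Pdk4 stood at 35.3, 61.1 and 8.43 CPM at P8, and without P8 replicates 1 and 2 its log2 fold change was 0.85 (adjusted p = 0.131, edgeR).

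By share of library reads, the largest gains and losses were made by few abundant genes. Sftpc gained most, from 736, 505 and 665 to 10419, 9644 and 11719 CPM, followed by Scgb1a1, Eln, Hbb-bs, Sparc, Sftpb, Mfap4, Hba-a1, Lyz2 and Col4a1. The matrix glycoprotein gene Sparc rose from 1202 ± 83.98 to 3684 ± 204 CPM (log2 fold change 1.69 ± 0.08), Mfap4, a microfibril protein of elastic fibres, by 2.62 ± 0.13 and the macrophage and type 2 cell lysozyme gene Lyz2 by 5.56 ± 0.17 on the log2 scale. H19 lost most, followed by Tubb5 (-1.30 ± 0.07), Igf2, Hsp90ab1 (-1.03 ± 0.07) and Tuba1b (-1.07 ± 0.06), which encode tubulins and a chaperone, Grb10 (-2.35 ± 0.07), an imprinted growth inhibitor, and Npm1 (-1.95 ± 0.07), a nucleolar protein. The glycolytic gene Pkm (-1.61 ± 0.10), the translation factor gene Eif4a1 (-1.21 ± 0.06) and Hnrnpa1 (-1.60 ± 0.07) completed the 10 largest losses. CPM values are shares, so a gain of some genes lowers the others, and the fold changes given beside them were scaled by the trimmed mean of M-values.

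The early interval, E15.5 to E18.5, was the interval of largest change, by the test between intervals, for 27 of the called genes. Of the 16 that rose, the 5 with the largest full-span change and at least 10 CPM were Samd9l, Ass1, Ildr1, G0s2 and Klf13. Samd9l, an interferon-inducible gene, went from 10.7, 9.08 and 10.3 CPM to 27.8, 23.7 and 23.95 by E18.5, and had 35.1, 40.3 and 43.3 by P8. G0s2, an inhibitor of lipid breakdown, stood at 18.6, 20.1 and 23.97, 80.4, 78.6 and 40.3 and 54.2, 55.2 and 46.5 CPM, and Klf13, a Krüppel-like factor gene, at 60.1, 49.8 and 61.2, 112, 108 and 98.4 and 120.3, 130.5 and 133. These 3 genes kept this call without E15.5 replicates 1 and 2. Ass1 and Ildr1 did not, although their early log2 fold changes were 1.56 and 0.76 without these libraries against 1.49 and 0.87 with them. Dynlrb2 and Deup1, genes of ciliated cells, were also among the 16.

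Of the 5 genes with the largest decrease that was made mainly in the early interval, 4 were heart muscle genes. Tnnt2, cardiac troponin T, had 175, 233 and 5.29 CPM in the E15.5 libraries, then 11.1, 9.30 and 4.76 in those of E18.5 and 14.2, 40.7 and 11.9 in those of P8, and Actc1, cardiac actin, at 350.04, 526 and 35.2, 48.5, 37.98 and 38.4 and 50.04, 121 and 42.04. At E15.5 replicates 1 and 2 were high and replicate 3 was low. Mybpc3 (-2.25 ± 0.87), Tnnc1 (-2.11 ± 0.82) and Aldh1b1 (-1.75 ± 0.63) had the same pattern, and without these libraries the full-span changes of all 5 reversed, Tnnt2 to 2.13 and Actc1 to 1.07. Of the 10 heart muscle genes 3 were called lower over the full span, against 0 lower and 6 higher without these libraries. Early changes called without E15.5 replicates 1 and 2 at 10 CPM or more numbered 63 and included Foxj1, Slc34a2, Napsa and Clic5 upwards and the embryonic globins downwards.

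By the same test, the late interval, P5 to P8, was led by squamous epithelium genes that were high in P8 replicates 1 and 2. Krt4, a keratin of the oesophagus and other squamous linings, was at 0.723, 0.599 and 0.805 CPM at P5 and 370.1, 278 and 2.25 at P8, and Sprr2a1, of the cornified envelope, at 0.0161, 0 and 0.0329 and 118, 71.4 and 0.707. Of the lists of other tissues, 5 squamous epithelium, 9 thymocyte and 4 liver genes were called higher in the late interval (all tested genes, 2.88%). The fat and skeletal muscle lists had 0 late calls. Over the full span, squamous epithelium was called higher in 4 of 5 tested genes, fat in 5 of 5 and skeletal muscle in 5 of 10. Thymocytes had 7 of 10 and liver 4 of 4 (all tested genes, 20.9%). In the absence of P8 replicates 1 and 2 the counts were 0 of 2, 1 of 4, 0 of 8, 3 of 8 and 2 of 2. With all libraries, nerve and glia (1 of 5) and thyroid (1 of 1) were called higher in few genes, and none of the 5 sex-linked genes was called. Sex-linked genes summed to 817, 180 and 963 CPM at E15.5 and 471, 541 and 203 at P8. Their median full-span log2 fold change was 0.06 with all libraries. It was 5.86 without E15.5 replicates 1 and 2, 1.65 without P8 replicates 1 and 2 and 7.44 without all 4. Comparisons without these libraries therefore also differ in sex-linked genes. For Krt4 and Sprr2a1, P8 replicate 3 was far below replicates 1 and 2. Sprr2a1 and Sprr2a2 are near-identical copies whose reads may be split between them. Krt15 (3.46 ± 0.76), Pkp1 (4.20 ± 1.26) and Sprr2a2 (5.57 ± 1.12) were the other largest late increases, and without P8 replicates 1 and 2 Krt4 changed by 0.53 over the full span (adjusted p = 0.381, edgeR).

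Other late increases were present in all 3 P8 libraries. Upk3b, a mesothelial uroplakin, was at 53.2, 46.8 and 31.9 CPM at P5 and 129.6, 138 and 145 at P8. Lrrn4 went from 10.4, 9.29 and 6.33 to 35.1, 39.6 and 35.5 and Gpm6a from 20.4, 17.9 and 15.2 to 41.3, 46.8 and 50.8. These are 3 of the 6 mesothelium genes examined, 5 of which were called higher over the full span. Without P8 replicates 1 and 2, 41 genes at 10 CPM or more were called in the late interval, with complement gene C3 at 158, 120.3 and 104 CPM at P5 and 522, 547 and 544 at P8, and the immediate-early gene Egr1 at 8.69, 11.95 and 9.70 and 27.6, 35.9 and 35.5. Every P8 library lay above every P5 library for both.

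Some genes rose within the course and were not called over the full span. Hey1, a Notch target of developing vessels, had 25.4 ± 4.998, 73.2 ± 4.87 and 47.9 ± 8.22 CPM at E15.5, P5 and P8, with a full-span log2 fold change of 0.99 ± 0.15. Pcdh17, a protocadherin, stood at 58.3 ± 9.29, 147 ± 5.27 and 109 ± 11.4 CPM. Dgkb (0.87 ± 0.14), a diacylglycerol kinase, and Ctla2b (0.95 ± 0.18), a protease inhibitor, were likewise highest at P5. These 4 missed the fold threshold over the full span, although each passed it in the middle interval. By RLE scaling or DESeq2 Hey1 (1.03) and Pcdh17 (1.02) passed it, as did all 4 without P8 replicates 1 and 2 (1.13 to 1.32). The remaining gene named by the rule, Acta1, skeletal muscle actin, stood at 0.369, 0.206 and 69.2 CPM at P5 and 293, 68.6 and 1.64 at P8, high in the libraries in which other skeletal muscle genes were high.

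Splicing was compared by the PSI of single events. An event was called when the 95% probable minimum difference in PSI between time-points (MV) was at least 10 percentage points, taking replicates of the same number together. From E15.5 to P8, 213 of 331318 events tested (0.0643%) were called, 125 with higher and 88 with lower PSI at P8, in 169 named genes. They comprised 140 exons (0.143% of exon events), 52 introns (0.0536%), 11 alternative acceptors (0.0137%) and 10 alternative donors (0.0177%). The E15.5 and P8 libraries did not overlap in 210 events. Taking all 9 pairs of an E15.5 and a P8 library in place of the same-numbered pairs, 161 of the 213 were also called. By limma on logit PSI, 165 events were called, of which 89 were among the 213. Without any 1 of the 6 libraries, which removes its pair, 352 or 395 events were called. The median absolute PSI change of the called events was 28.1 percentage points.

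**Figure D5:**
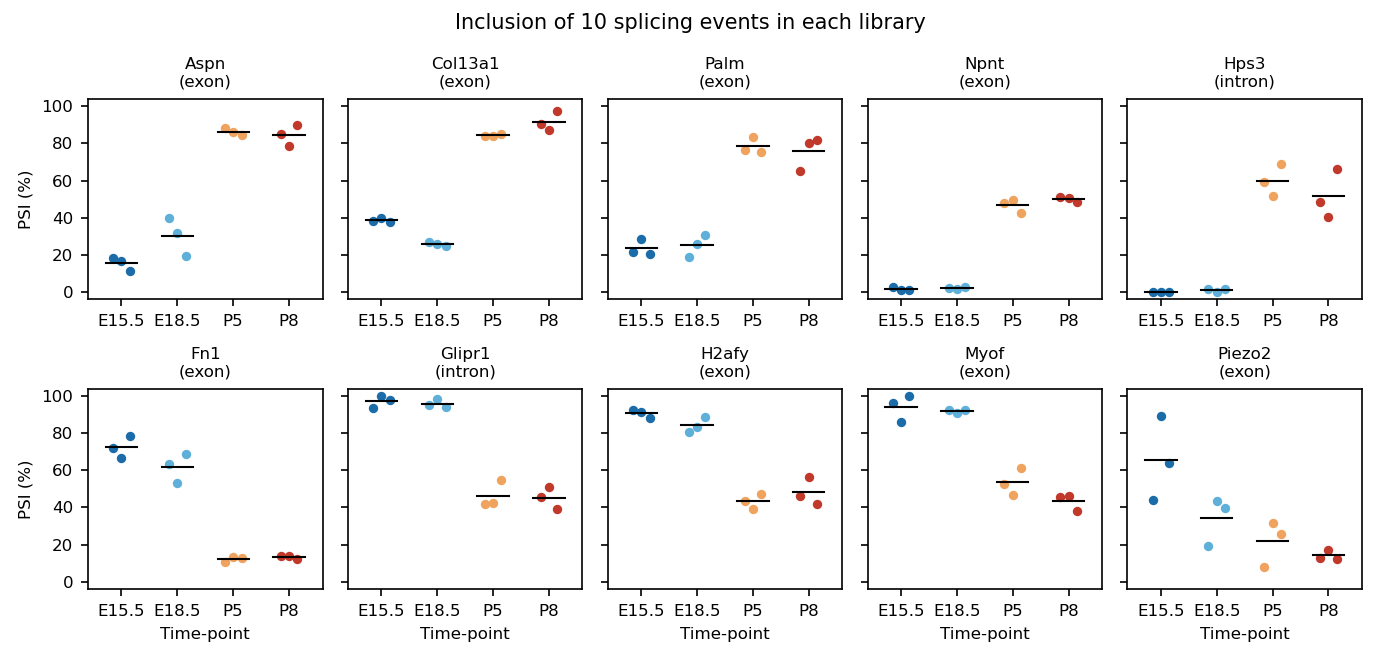
PSI of 10 splicing events in each library (points) and the mean of each time-point (bars), with the gene and event type above each panel. Most events step between E18.5 and P5 and are at similar levels in P5 and P8, whereas the Piezo2 exon is lower at every later time-point.

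With all libraries, called splicing changes were also made mainly between E18.5 and P5, the longest interval. Of the 213 events 46 (21.6%) made more than 50% of their PSI change in the early, 140 (65.7%) in the middle and 18 (8.45%) in the late interval, with median shares of 23.97%, 66.8% and 8.47%. Over the 14032 events with a mean PSI between 5 and 95 over all 12 libraries, the median absolute change was 4.64 points for the full span and 3.80, 4.23 and 3.18 for the intervals. Called events numbered 33 (0.00996%), 169 (0.051%) and 15 (0.00453%) in the 3 intervals. The numbers of events depended on the libraries, and rose when a pair was left out. Without E15.5 replicate 2 and P8 replicates 1 and 2 a single P8 library remains. Its noise then enters both the call and the late share, so these counts cannot be set against the others. Without single libraries 42 to 159 events were early, 133 to 201 in the middle and 18 to 75 late, and without E15.5 replicate 2 and P8 replicates 1 and 2 they were 125, 263 and 331, with most in the late interval. Whether splicing and expression differed in these shares was not tested.

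The largest increase in inclusion was in Aspn, asporin of the extracellular matrix. Its PSI was 18.1, 16.5 and 11.4 in the 3 E15.5 libraries, 39.7, 31.9 and 19.1 at E18.5 and 84.96, 78.8 and 90.05 at P8, and 7 called exon events lay in this gene, which are not independent of each other. Col13a1, a transmembrane collagen, had 38.1, 39.5 and 37.8 at E15.5 and 90.7, 86.97 and 97.5 at P8, after a fall to 25.8% ± 0.983 at E18.5. Npnt, the basement membrane ligand nephronectin, went from near exclusion, with 2.47, 1.07 and 0.860 at E15.5 and 51.2, 50.8 and 48.2 at P8. Palm, paralemmin of the plasma membrane, had 21.7, 28.6 and 20.3 at E15.5 and 64.97, 80.2 and 81.96 at P8. In each of these 4 events every P8 library was above every E15.5 library.

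Tead1, a transcription factor of the Hippo pathway, had PSI of 33.5, 7.58 and 9.04 at E15.5 and 62.4, 71.97 and 63.7 at P8, with a mean of 41.3 at E18.5. The P8 values were uneven for Inpp4a and Syne1, with 87.1, 60.8 and 72.6 and 91.6, 59.2 and 92.3 at P8, and these events had as few as 16 and 17 reads in a library. A retained intron of Hps3 was at 0, 0 and 0 at E15.5 and 48.5, 40.4 and 66.1 at P8, on at least 18 reads per library. Mical3 (PSI change 61.6 points) and Zfp827 (48.8) were the other largest increases.

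The largest decrease was in Fn1, which encodes fibronectin. Its exon had PSI of 72.2, 66.4 and 78.4 at E15.5 and 14.04, 14.02 and 12.4 at P8, with 61.7% ± 7.98 at E18.5 and 12.3% ± 1.64 at P5. A retained intron of Glipr1 had 93.8, 100 and 98.03 at E15.5 and 45.6, 51.2 and 39.05 at P8. In Myof, the membrane repair protein myoferlin, the values were 96.1, 86.3 and 100 at E15.5 and 45.8, 46.4 and 38.05 at P8. In the late interval they changed by 1.20, -1.09 and -10.2 points.

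H2afy, encoding the histone variant macroH2A1, held an exon pair that moved in opposite directions: 1 exon had PSI of 92.8, 91.6 and 87.97 at E15.5 and 46.2, 56.5 and 41.6 at P8 and the other 8.08, 8.93 and 10.4 at E15.5 and 54.9, 45.6 and 63.8 at P8. The PSI values of such a pair are not independent. Piezo2, a mechanically gated ion channel, fell over the span, with means of 65.6, 34.1, 21.7 and 14.1 at the 4 time-points and 61.3% of the change in the early interval. Exons of Col25a1 (-51.6 points), Gpr137 (-43.1), Fnbp1 (-42.4) and Macf1 (-42.05) and an intron of Krtcap3 (-42.7) were also lower.

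Few events were called in the outer intervals as well as over the full span, and these are named after their values had been seen. In the early interval they were an exon of Aspn, an exon each of the splicing kinases Clk1 and Clk4 and an intron of the non-coding RNA Bvht. The Clk4 exon had PSI of 63.6, 69.1 and 80.6 at E15.5, 32.8, 45.5 and 24.5 at E18.5 and 47.3, 35.7 and 42.4 at P8. The Clk1 exon fell to 40, 55.8 and 36.9 at E18.5, was at 73.7, 63.5 and 71.9 at P5 and at 43.5, 47.8 and 45.6 at P8, and so was called downwards in both outer intervals. In the late interval an exon of Suco and alternative acceptors of Ahcyl1 were also called, as was 1 event without a gene name, with the Suco exon at 30.9, 33.3 and 31.5 at P5 and 54.95, 59.4 and 63.6 at P8.

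Splicing and expression were also compared gene by gene. Of the 168 genes with a called event that were tested for expression, 44 (26.2%) were also called as differentially expressed, against 32.3% of all tested genes. Aspn (log2 fold change 3.35), Npnt (2.49) and Fn1 (1.98) changed in both, whereas Col13a1 (0.21) and Palm (-0.31) did not pass for expression. Among 33 genes of splicing regulators 9 were called lower and 2 higher (all tested genes, 11.5% and 20.9%). Hnrnpa1, a repressor of exon inclusion, was at 982, 998 and 983 CPM at E15.5 and 294, 311 and 321 at P8, and the SR protein gene Srsf7 at 302, 342 and 313 and 93.8, 99.9 and 103. Ptbp2 (-1.47 ± 0.11) and Celf4 (-1.87 ± 0.18) fell as well. Cpeb4 (1.99 ± 0.14), which acts on polyadenylation and translation, and Rbfox1 (1.34 ± 0.29) rose.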

How the data were processed

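RNA was extracted from whole, flash-frozen mouse lung with the RNeasy Plus Mini kit and sequenced from TruSeq libraries. The authors aligned reads to mm10 with TopHat2 2.1.1 and Bowtie2 2.3.4 and counted them per gene with HTSeq 0.10.0. The deposited raw counts cover 16152 genes that passed their low-value filter, and the deposited CPM values cover 51825 genes, scaled by the mapped reads of each library. Whether strand was used in counting is not given in the sources used here. The deposited PSI values, in percent, come from the authors' VAST-TOOLS run, with read support beside each of 661162 events.

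Counts were tested with edgeR 4.0.16 (quasi-likelihood, TMM) in R 4.3.3, all 12 libraries in 1 fit, on genes with at least 1 CPM in 3 libraries, with p-values adjusted by Benjamini-Hochberg over the 15994 genes. The CPM values of all libraries were whole reads (tolerance 0.01) and equalled the deposited counts. Events needed 10 reads in enough libraries for at most 2 to fall below, and MV was taken from Beta posteriors at probability 0.95. Counts were simulated with changes between E18.5 and P5 alone. Called over the span were 172 of 198 genes with a log2 change of 1.5 and 195 of 197 with 3, beside 2 and 3 unchanged genes. The test between intervals placed 128 of the 198 and 180 of the 197 in the middle interval. Early and late changes were not simulated.

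The genes named are the 15 largest increases and decreases over the full span, the 10 largest gains and losses in mean CPM, the 5 largest per interval and direction by the test between intervals, the 5 largest transient rises, and members of 48 lists. The events named are the 10 largest increases and decreases, 1 a gene, that were also called over all 9 pairs. Gene names of events came from the study's tables. The comparison, the members and the lists were chosen with earlier results of these data known. Depth was 48436716 to 62279460 mapped reads, and counting intervals cover counting error only. Alternatives were other scalings, tools, thresholds, filters and left-out libraries.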

Additional observations from a re-analysis of the deposited data

Results flagged for a closer look

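The deposited CPM values hold genes that the deposited counts leave out. Of 220 such genes that passed the filter on low values, 89 were called from E15.5 to P8 by edgeR, 55 higher and 34 lower. They were of low level, with no group mean above 4.35 CPM. Among those higher at P8 were H2-Eb2, of MHC class II, and Cxcl9, an interferon-induced chemokine, and among those lower Cdh10, a cadherin, and Hoxb9. These genes were named after their values had been seen.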

How the results depend on the processing

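The full-span count kept its size under every scaling, tool and filter tried, with 5256 genes by library size alone (3165 higher, 2091 lower), 5160 by RLE, 5164 by DESeq2 and 5263 on reads recovered from CPM. The median over all genes moved by at most 0.07 on the log2 scale. Replicate numbers did not pair the libraries, since same-numbered deviations correlated at -0.34 to 0.30, and with the replicate block 5171 genes were called over the span and 456, 4308 and 414 in the intervals. Over all 9 pairs, without that block, 178 events were called, 11 of them mostly after P5.

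Thresholds moved the counts. By FDR alone 12197 genes were called (6015 higher, 6182 lower), with 3441, 11369 and 2872 in the intervals, 1570, 9738 and 1331 by majority, 127, 5582 and 115 by test and 1634 in an interval alone. Above a log2 change of 2 these were 2104 (1782, 322), with 188, 1706 and 116, then 79, 1807 and 120, then 8, 1275 and 9, and 330. At 75% of the change, 81 genes were early and 106 late, and 13, 79 and 6 events fell in the intervals. At MV of 5 there were 507 events (142, 278 and 61 by interval), at MV of 20 there were 59 (4, 49 and 2), and by limma 25 were early.

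Without E15.5 replicates 1 and 2, 179 genes were called early and 18 were late by test. Without P8 replicates 1 and 2, 11 were early by test, 51 called late, 163 late by majority and 10 late by test. Without all 4, the values were 190 and 10 early, and 88, 129 and 8 late. Without E15.5 replicate 2 and P8 replicates 1 and 2, 9 genes were early by test, and 90, 159 and 12 late, and 756 events were called (125, 263 and 331 by interval).

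Leaving out single libraries gave 284 to 572 early and 198 to 682 late genes, 17 to 75 and 13 to 84 by test, 5050 to 5171 over the span, and 213 to 395 events, 42 to 159 of them early, 133 to 201 in the middle and 18 to 75 late. For the intervals the lowest came without E18.5 replicate 2 and P8 replicate 2.

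Full-span log2 fold changes that turned were Actc1 (1.07), Aldh1b1 (0.93), Mybpc3 (1.99), Tnnc1 (2.22) and Tnnt2 (2.13) without E15.5 replicates 1 and 2, where all 4 left out gave Actc1 0.33, Mybpc3 1.20, Tnnc1 1.45 and Tnnt2 1.24. Without P8 replicates 1 and 2 Krt15 was at -0.0903 and Cox7a1 at -0.40, and without E15.5 replicate 2 as well Krt15 was at -0.0147. Of the 159 named genes tested in every setting 136 kept direction and call, and 4 (Pkp1, Prtn3, Sprr2a1 and Sprr2a2) fell below the filter in some settings. All 20 named events kept direction and call in the settings run on them, which is no test of them. They were chosen for being called over all pairs of libraries, and leaving out a pair raised the number of calls. Stricter thresholds are not covered, since the Zfp827 exon, at an MV of 16, fails an MV of 20. Events had a median of 119 reads per library, which limits PSI. In a setting with a single P8 library, its noise enters both the call of an event and the late share. The cause of these shifts was not tested.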
